A study of Danio rerio with 12 samples.

Results

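DNA replication machinery genes were followed by RNA sequencing in whole zebrafish embryos at 10 somites, across 4 groups that cross prdm1 genotype with injection of pbx2/4 morpholinos. The gene rows were taken by a rule on names, from the minichromosome maintenance (MCM) helicase, origin recognition complex (ORC), GINS, replication factor C, replication protein A, polymerase, primase, clamp, licensing, deoxynucleotide supply, topoisomerase and replication-coupled chromatin genes. The rule used no measured value, but the list was chosen with earlier results of these data known. The names matched 62 of the 31051 gene rows of the count table, and these rows carry 57 distinct gene names. All 62 passed the filter on low counts, which kept 18117 rows. No row carried the name mcm2 or prim2, and these genes were not analysed here.

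The embryos were of the AB strain and were injected at the 1-cell stage. Controls (control-MO; prdm1+/+) and prdm1 mutants (control-MO; prdm1-/-) received a control morpholino. The pbx2/4 morphants (pbx2/4-MO; prdm1+/+) and the double embryos (pbx2/4-MO; prdm1-/-) received pbx2/4 morpholinos. A morpholino is an antisense oligonucleotide that keeps an RNA from being translated or spliced. Every library thus comes from injected embryos, and the pbx2/4 effect is a knockdown and not a mutation. Mutants and morphants below mean prdm1 mutants and pbx2/4 morphants. RNA of single embryos was pooled by group after genotyping, so a library averages over embryos and over every cell type of the embryo. Each group had 3 libraries, 12 in all. The study asked how Pbx and Prdm1a transcription factors regulate the fast muscle program. Pbx proteins are homeodomain partners of Hox and muscle regulatory factors, and Prdm1a is a zinc-finger repressor required for the slow muscle fate.

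DNA replication starts when the origin recognition complex, Cdc6 and Cdt1 load the ring-shaped MCM helicase onto DNA, a step called licensing that geminin restrains. Kinases and the factors Cdc45, GINS and Mcm10 then switch the helicase on, primase and the polymerases copy the strands, and a sliding clamp loaded by replication factor C keeps the polymerases on the template. Most of these genes are targets of E2F factors and are transcribed as cells enter S phase, so in embryos their RNA is usually highest in tissues with many cycling cells.

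The columns of the count table fall by the form of their names into 3 sets, called A, B and C, with 1 library of each group in each. The names in sets B and C carry the same library numbers for the same groups. Whether those libraries come from separate embryos cannot be told from the names. The study design names 3 separate egg collections with injections, but nothing ties a column set to a collection. The total count of a library was 9703947 to 12510949 (set A), 9059663 to 10288335 (set B) or 15164400 to 17236848 (set C). Levels are CPM, read counts normalised to library size, and 1 count was worth 0.0572 to 0.115 CPM. Libraries of the same set deviated from their group means together, with correlations across genes of 0.448 to 0.669 for the 18 pairs within a set and -0.483 to -0.0299 for the 36 pairs across sets. The deviations within a group cancel out, so positive correlations within sets push those across sets to negative values. Because of the correlations within sets, each count of calls is given first without and then with the set as a block. The RNAs of the targeted genes do not measure the loss of the proteins. pbx2 RNA had 43.1 to 67.7 CPM in the 6 libraries without pbx2/4-MO and 225 to 316 in the 6 with it. pbx4 RNA had 275.5 to 361 CPM without and 355.3 to 493.9 with it. prdm1a RNA had 94.8 to 114 CPM in controls, 132 to 144 in prdm1 mutants, 109.7 to 129.1 in pbx2/4 morphants and 218 to 238.8 in double embryos. The labels name no prdm1 allele.

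RNA of the replication genes was lower in embryos with pbx2/4-MO, in both prdm1 genotypes. The 62 rows together held 0.809% ± 0.0233 of all counts in controls (SD over 3 libraries), 0.813% ± 0.0276 in mutants, 0.594% ± 0.0640 in morphants and 0.603% ± 0.0675 in double embryos. The lowest library without pbx2/4-MO had 0.782% and the highest library with it had 0.678%, so the groups did not overlap. The MCM helicase subunits mcm3 to mcm7, in 6 rows, summed to 2302 ± 134 CPM in controls, 2289 ± 152 in mutants, 1464 ± 181 in morphants and 1491 ± 127 in double embryos. In bulk RNA from whole embryos, fewer cells of a type and less RNA per cell cannot be told apart.

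**Figure D1:**
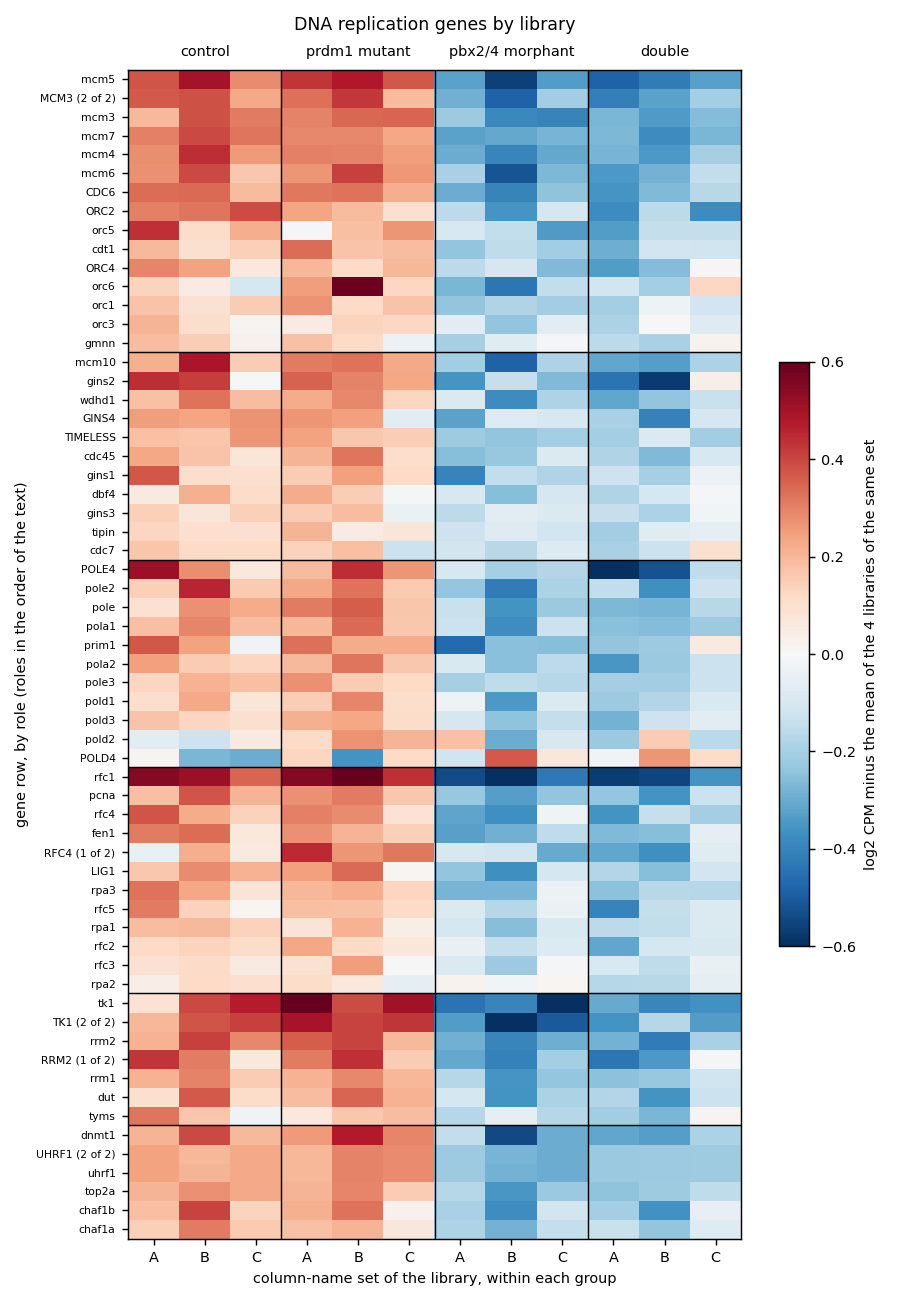
Each row is a replication gene row and each column a library, with the log2 CPM minus the mean of the 4 libraries of the same set in colour and black lines between the 6 role groups. The 6 columns without pbx2/4-MO are mostly red and the 6 with it mostly blue, and POLD4 and pold2 stand out from the other rows.

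The effect of pbx2/4-MO was tested in prdm1+/+ embryos (pbx2/4 morphants against controls) and in prdm1-/- embryos (double embryos against prdm1 mutants), with no library in common. Both tests came from 1 model and the same 3 sets, whose libraries deviated together, so they were not independent of each other. Without the block, 6 of the 62 rows fell in pbx2/4 morphants at an edgeR adjusted p under 0.05, where 0.883% of all genes tested were called lower, and none was called higher, where 0.552% of all genes were. With the set as a block 48 fell, against 9.95% of all genes, and none rose, against 7.73%. In prdm1-/- embryos 5 rows fell without the block, where 0.811% of all genes were called lower, and 47 fell with it, against 8.98%. None was called higher there, against 0.552% and 7.22% of all genes. The mean of both effects, 6 libraries against 6, called 33 rows lower, with 4.23% of all genes called lower. With the block it called 59 lower, against 16.6% of all genes. It called none higher, against 2.95% and, with the block, 15.5% of all genes. Every row called without the block was also called with it, 6 of 6, 5 of 5 and 33 of 33 in these 3 comparisons.

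The median log2 fold change over the 62 rows was -0.42 in pbx2/4 morphants against controls and -0.40 in double embryos against prdm1 mutants, beside medians of 0.01 over all genes in both. Of the 62 rows, 61 had a negative log2 fold change in each comparison, where 48.2% and 48.0% of all genes did. POLD4 was the exception in both, and scaling by library size only left 2 rows positive in pbx2/4 morphants. The estimates in the 2 genotypes differed by a median of 0.05 in absolute log2 fold change over the rows, beside 0.11 over all genes tested, and 61 rows (98.4%) were negative in both genotypes, beside 37.1% of all genes. Expression levels were not matched between the 62 rows and all genes, which limits the comparison of 0.05 with 0.11.

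Within the sets, which compare libraries of the same column-name set, 60 of the 62 rows were lower in pbx2/4 morphants than in controls in all 3 sets, where 23.6% of all genes were. In double embryos against prdm1 mutants 56 rows were lower in all 3 sets, where 23.8% of all genes were. Over both genotypes, 55 rows were lower in all 6 pairs of libraries, which come from the same 3 sets, against 15.3% of all genes. For 30 rows every library with pbx2/4-MO lay below every library without it, against 3.72% of all genes, and for none did every such library lie above, against 2.56%. In 3 libraries against 3, 46 rows had every morphant below every control, against 8.5% of all genes, and 37 had every double library below every mutant, against 7.98%. The set medians of the log2 difference in pbx2/4 morphants were -0.40 in set A, -0.49 in set B and -0.31 in set C. In double embryos against prdm1 mutants they were -0.47, -0.51 and -0.28, with the smallest decrease again in set C, the most deeply sequenced set. Depth cannot be told apart from other differences between the sets, and its part was not tested.

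**Figure D2:**
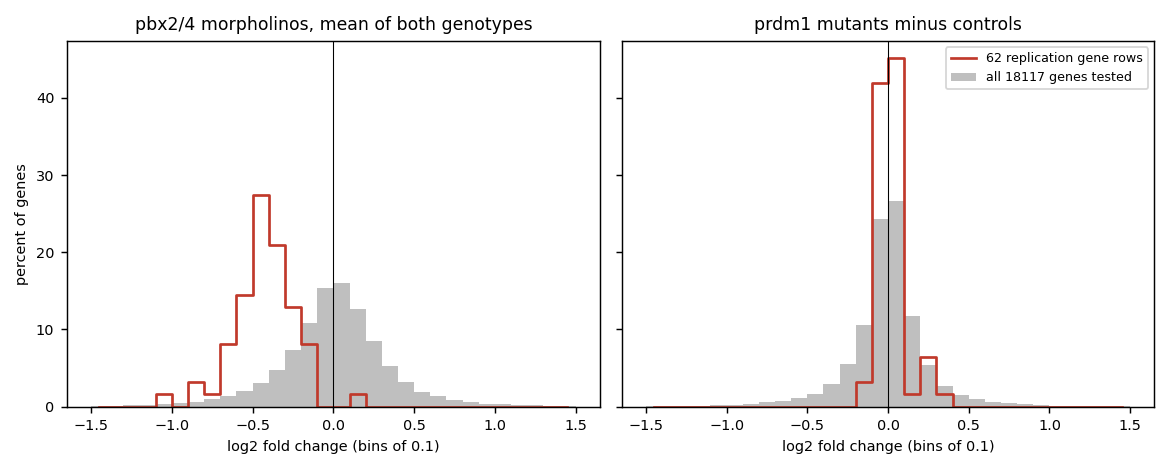
Histograms in bins of 0.1 show the percent of genes at each log2 fold change, for the 62 replication gene rows (red outline) and all 18117 genes tested (grey), for pbx2/4-MO as the mean of both genotypes (left) and for prdm1 mutants minus controls (right). The red outline is centred near -0.42 on the left and near 0.01 on the right.

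Licensing factors, which load the helicase at origins, had a median log2 fold change of -0.51 in the mean of both genotypes. Of 15 rows, 11 fell without the block, against 4.23% of all genes, and 15 with it, against 16.6%. mcm5 (ENSDARG00000019507), a subunit of the MCM helicase, had 371, 366 and 359 CPM in the control libraries of sets A, B and C, the order used for all values below, and 385, 361 and 382 in prdm1 mutants. It had 229, 175 and 233.6 CPM in pbx2/4 morphants and 204, 194 and 235 in double embryos. All 6 libraries with pbx2/4-MO lay below the other 6, with set B lowest in both morpholino groups. mcm5 fell by 41.8% in pbx2/4 morphants (log2 fold change -0.78, SE 0.12, edgeR adjusted p = 0.0075), lower in 3 of 3 sets. In prdm1-/- embryos its log2 fold change was -0.83 (SE 0.12, edgeR adjusted p = 0.00499). The call held in each of the 17 alternative settings in both genotypes.

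mcm3 (ENSDARG00000024204) and the row MCM3 (2 of 2) (ENSDARG00000090802) carry the same gene name, and both hold fractional counts, so reads may have been divided between them. The mcm3 row had 212, 215 and 219 CPM in controls, 228, 210.2 and 224 in mutants, 159, 126 and 133 in morphants and 154, 131 and 147 in double embryos. MCM3 (2 of 2) had 245, 247 and 233 CPM in controls, 239, 254 and 228 in mutants, 156, 135 and 172 in morphants and 143, 151 and 173 in double embryos. In both rows the 6 libraries with pbx2/4-MO lay below the other 6. The mcm3 row fell by 35.2% in pbx2/4 morphants (log2 fold change -0.63, SE 0.11, edgeR adjusted p = 0.015) and fell by 34.9% in prdm1-/- embryos (-0.62, SE 0.11, 0.0159). MCM3 (2 of 2) fell by 36.1% in the first comparison and fell by 35.1% in the other, with edgeR adjusted p of 0.015 and 0.018.

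mcm4 (ENSDARG00000040041), another helicase subunit, had 438, 403 and 433 CPM in controls and 445, 364 and 431 in prdm1 mutants. It had 294, 225 and 293 CPM in pbx2/4 morphants and 298, 233.6 and 316 in double embryos, with set B lowest in every group and no overlap between libraries with and without pbx2/4-MO. The log2 fold change was -0.65 in pbx2/4 morphants (SE 0.14, edgeR adjusted p = 0.0438) and -0.55 in prdm1-/- embryos, where it was not called without the block (edgeR adjusted p = 0.0881, and 4.63e-05 with the block).

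At this sample size the calls of mcm3, MCM3 (2 of 2) and mcm4 were often lost when a library was left out or the fit was changed. No particular library carried them. In pbx2/4 morphants mcm4 lost its call in 9 of 17 alternative settings, MCM3 (2 of 2) in 6 and mcm3 in 5. In prdm1-/- embryos MCM3 (2 of 2) lost its call in 6 of 17 and mcm3 in 4. mcm4 lost its call in pbx2/4 morphants when any of the 6 control or morphant libraries was left out, with log2 fold changes of -0.71 to -0.54. mcm3 lost it there without control set A or C or morphant set B or C (-0.64 to -0.56), and MCM3 (2 of 2) without control set A, B or C or morphant set A or B (-0.67 to -0.56). In prdm1-/- embryos mcm3 lost its call without mutant set A or C or double set B (-0.61 to -0.56), and MCM3 (2 of 2) without mutant set A, B or C or double set A or B (-0.66 to -0.57). The log2 fold changes stayed negative in each of these fits.

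The helicase subunits mcm7 and mcm6 fell as well, with mean log2 fold changes over both genotypes of -0.61 for mcm7 and -0.57 for mcm6 (edgeR adjusted p = 0.0107 and 0.00568). CDC6, which helps load the helicase, fell by 32.4% (-0.57, SE 0.11, edgeR adjusted p = 0.00679), and cdt1, its partner in loading, fell by 22.6% (-0.37). Among origin recognition subunits, ORC2, ORC4 and orc1 fell, with log2 fold changes of -0.51, -0.36 and -0.32. orc3, orc5 and orc6 had -0.21, -0.42 and -0.34 and passed the test only with the block. The 6 ORC rows summed to 218 ± 7.41 CPM in controls, 223 ± 17.3 in mutants, 174 ± 12.5 in morphants and 181 ± 24.9 in double embryos. The ORC sums with and without pbx2/4-MO did not overlap within either prdm1 genotype.

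gmnn (ENSDARG00000035957), which encodes geminin, the inhibitor of Cdt1, had the smallest difference of the licensing group. It had 39.5, 42.6 and 46.7 CPM in controls, 39.3, 41.8 and 44.7 in mutants, 30.3, 36.5 and 45.5 in morphants and 31.2, 33.6 and 46.4 in double embryos. Set C was highest in every group and the groups overlapped. The mean log2 fold change was -0.19 (SE 0.12, edgeR adjusted p = 0.455 without the block and 0.0333 with it).

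**Figure D3:**
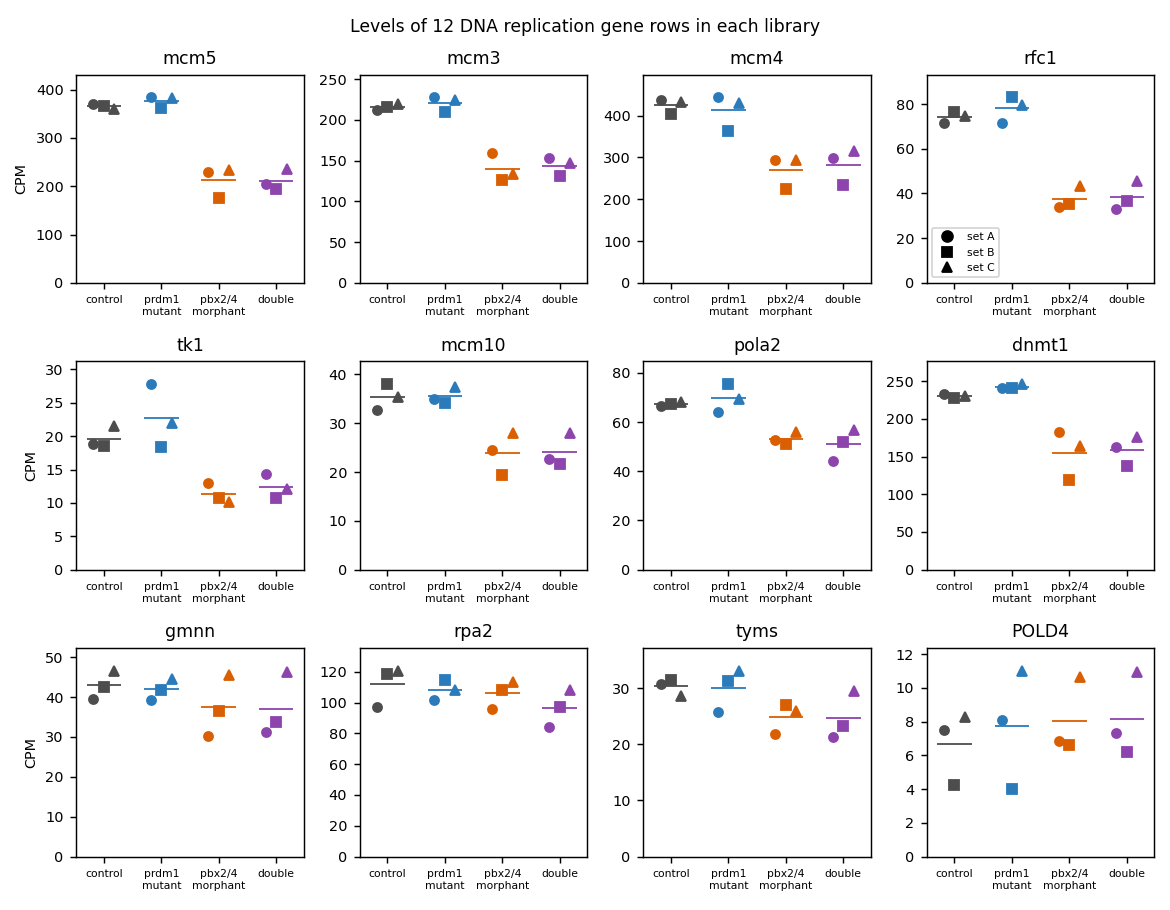
CPM of 12 replication gene rows in each library, by group, with the symbol giving the column-name set and the line the mean of 3 libraries. mcm5, mcm3, mcm4, rfc1, tk1, mcm10, pola2 and dnmt1 show libraries with pbx2/4-MO below those without, while gmnn, rpa2, tyms and POLD4 overlap.

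Factors that activate the helicase and act at the fork formed 11 rows. In the mean of both genotypes 2 fell without the block, against 4.23% of all genes, and 10 with it, against 16.6%. mcm10 (ENSDARG00000045815), needed for helicase activation, had 32.7, 38.1 and 35.5 CPM in controls and 35.1, 34.1 and 37.4 in prdm1 mutants. It had 24.4, 19.4 and 28.1 CPM in pbx2/4 morphants and 22.7, 21.6 and 28.0 in double embryos, without overlap between libraries with and without pbx2/4-MO. Its mean log2 fold change was -0.56 (SE 0.11, edgeR adjusted p = 0.00833). The other call was wdhd1, whose product links the helicase to polymerase alpha, at -0.43 (edgeR adjusted p = 0.0262). The GINS rows gins1, gins2, gins3 and GINS4 had mean log2 fold changes of -0.35, -0.53, -0.21 and -0.41, and cdc45, the other helicase partner, had -0.35. These 5 passed the test only with the block, as did the fork protection genes TIMELESS (-0.39) and tipin (-0.21) and the kinase activator dbf4 (-0.25).

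cdc7 (ENSDARG00000023584), the kinase that Dbf4 activates, was the row of this group called in neither fit. It had 23.8, 23.8 and 24.1 CPM in controls, 23.3, 24.8 and 20.2 in mutants, 19.6, 19.5 and 20.9 in morphants and 18.5, 20.0 and 23.7 in double embryos. The controls lay above the pbx2/4 morphants, and the double embryos overlapped the prdm1 mutants, with set C higher in double embryos than in mutants. The mean log2 fold change was -0.19 (SE 0.09, edgeR adjusted p = 0.261, and 0.0747 with the block).

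Among 11 polymerase and primase rows, 5 fell in the mean of both genotypes, against 4.23% of all genes, and 9 with the block, against 16.6%. pola2 (ENSDARG00000015070), a subunit of the polymerase alpha that starts each new strand, had 66.7, 67.3 and 68.0 CPM in controls and 64.2, 75.6 and 69.5 in prdm1 mutants. It had 52.6, 50.9 and 55.8 CPM in pbx2/4 morphants and 44.1, 52.0 and 56.9 in double embryos, all below the libraries without pbx2/4-MO. It fell by 24.0% (log2 fold change -0.40, SE 0.08, edgeR adjusted p = 0.0125). The polymerase epsilon rows pole, pole2 and POLE4, for the leading strand, fell with mean log2 fold changes of -0.47, -0.51 and -0.58, and pola1 with -0.44. pole3 (-0.35), pold1 (-0.33), pold3 (-0.31) and the primase gene prim1 (-0.44) passed the test only with the block.

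Polymerase delta copies mainly the lagging strand. POLD4 (ENSDARG00000079632), an accessory subunit, had 7.51, 4.25 and 8.25 CPM in controls, 8.12, 4.01 and 11.02 in mutants, 6.83, 6.63 and 10.6 in morphants and 7.32, 6.18 and 10.9 in double embryos. The groups overlapped, set C was highest in every group, and the 3 sets spanned 0.91 on the log2 scale, the widest of the 62 rows. Its mean log2 fold change was 0.17 (SE 0.26, edgeR adjusted p = 0.788), with -0.13, 0.59 and 0.35 within the sets in prdm1+/+ embryos and -0.14, 0.57 and -0.01 in prdm1-/- embryos. pold2 had a mean log2 fold change of -0.15 (edgeR adjusted p = 0.627). Both, with cdc7, were the 3 rows that the mean of both genotypes called neither without nor with the block.

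Of the 12 rows for the sliding clamp, its loader, single-strand binding and strand maturation, 5 fell in the mean of both genotypes and 12 with the block. Over all genes 4.23% fell, and 16.6% with the block. rfc1 (ENSDARG00000054799), the large subunit of the clamp loader replication factor C, had the lowest log2 fold change of all 62 rows in both genotypes. It had 71.6, 76.5 and 74.5 CPM in controls and 71.7, 83.3 and 79.4 in prdm1 mutants. It had 33.8, 35.4 and 43.5 CPM in pbx2/4 morphants and 33.0, 36.6 and 45.6 in double embryos. The highest library with pbx2/4-MO was below the lowest without it, and set C was highest in both morpholino groups. rfc1 fell by 49.3% in pbx2/4 morphants (log2 fold change -0.98, SE 0.14, edgeR adjusted p = 0.00569) and fell by 50.8% in prdm1-/- embryos (-1.02, SE 0.14, 0.00393), lower in 3 of 3 sets in each. Like mcm5, it kept its call in each of the 17 alternative settings.

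The smaller clamp loader subunits had log2 fold changes nearer 0 than rfc1, a difference that was not tested. The rfc4 row had a mean log2 fold change of -0.47 (edgeR adjusted p = 0.0236), and rfc2, rfc3, rfc5 and RFC4 (1 of 2), called only with the block, had -0.25, -0.20, -0.29 and -0.42. pcna, the sliding clamp itself, fell by 29.0% (-0.49, SE 0.12, edgeR adjusted p = 0.0233). LIG1, the ligase that seals lagging-strand fragments, fell with -0.41, and fen1, the flap nuclease that trims them, had -0.43 and was called only with the block. Of the single-strand binding subunits rpa1 fell with -0.28 and rpa3, called with the block, had -0.38.

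rpa2 (ENSDARG00000037188), the middle subunit of replication protein A, had the smallest difference of these 12 rows. It had 97.0, 119 and 121 CPM in controls, 102, 114 and 108 in mutants, 95.8, 108 and 114 in morphants and 83.9, 97.4 and 108 in double embryos. Set A was lowest in every group and the groups overlapped. The mean log2 fold change was -0.12 (SE 0.09, edgeR adjusted p = 0.512, and 0.0443 with the block).

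**Figure D4:**
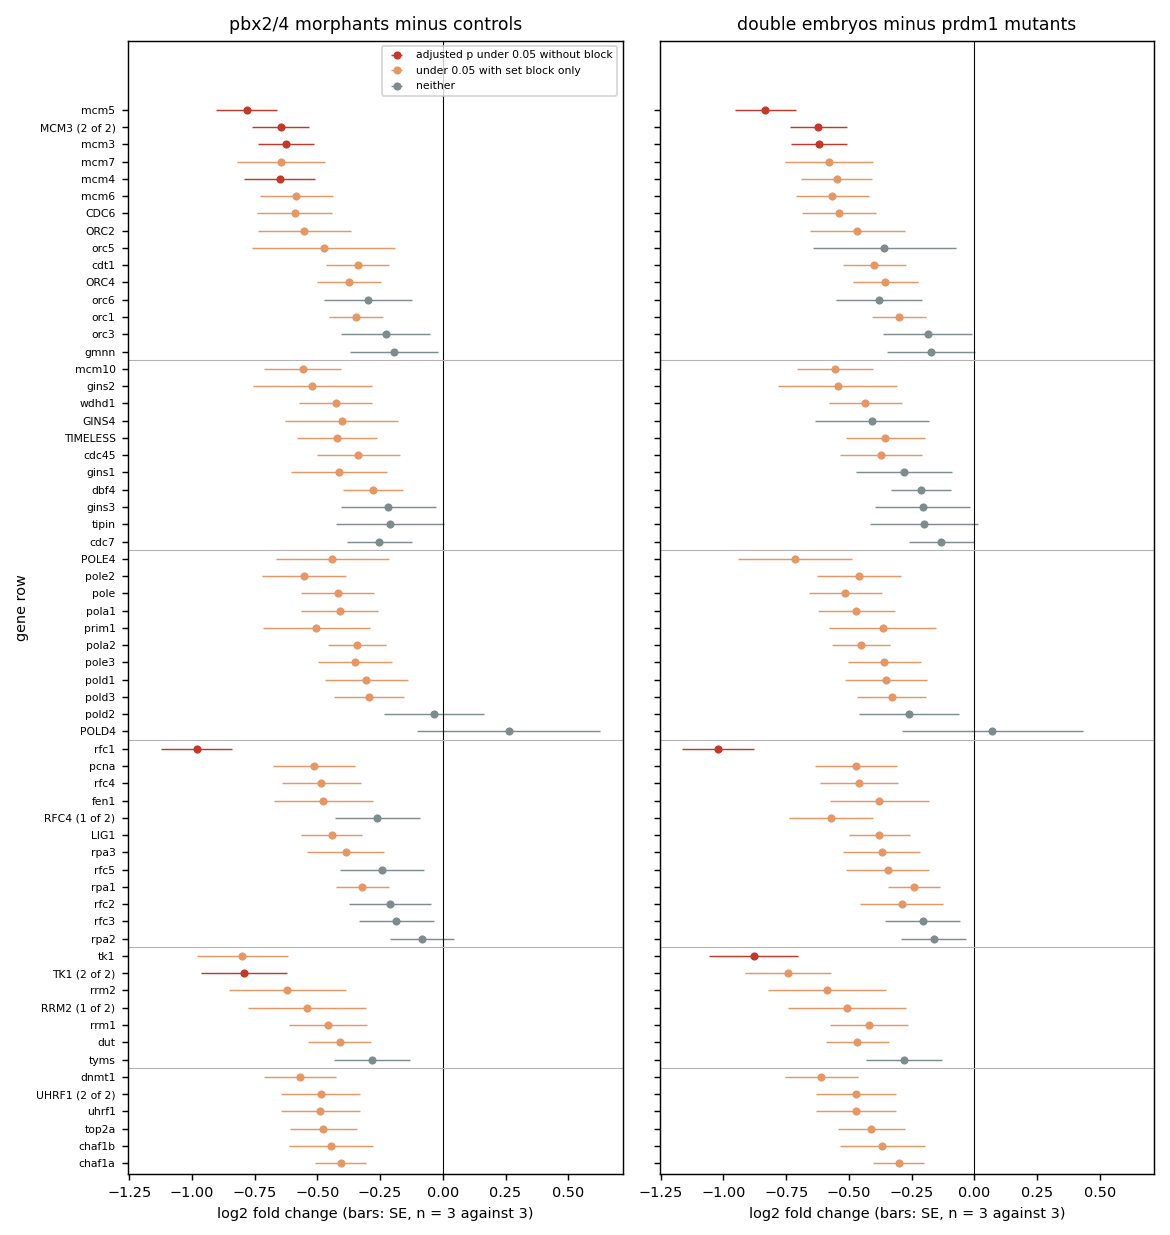
Log2 fold changes with their SE for the 62 replication gene rows, in the 6 role groups from licensing at the top to chromatin at the bottom, for pbx2/4 morphants minus controls and double embryos minus prdm1 mutants. Red points passed an adjusted p of 0.05 without the block (6 and 5 rows), orange points with it only, and POLD4 alone lies right of 0 in both panels.

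Of the 7 nucleotide supply rows, 5 fell in the mean of both genotypes, against 4.23% of all genes, and 7 with the block, against 16.6%. The names tk1 and rrm2 each have 2 of these rows, so the rows are not all separate genes. tk1 (ENSDARG00000086561) and TK1 (2 of 2) (ENSDARG00000018118) are named for thymidine kinase, which salvages thymidine, and hold fractional counts in 7 and 10 libraries. Reads may thus have been divided between these rows. tk1 had 18.8, 18.5 and 21.6 CPM in controls, 27.9, 18.4 and 22.03 in mutants, 13.0, 10.7 and 10.1 in morphants and 14.3, 10.7 and 12.1 in double embryos. TK1 (2 of 2) had 20.5, 18.3 and 20.5 CPM in controls, 25.1, 18.7 and 20.8 in mutants, 14.1, 9.28 and 10.9 in morphants and 13.9, 12.5 and 12.2 in double embryos. In both rows the libraries with pbx2/4-MO lay below the others, and the set A prdm1 mutant was the highest library.

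TK1 (2 of 2) fell by 42.2% in pbx2/4 morphants (log2 fold change -0.79, SE 0.17, edgeR adjusted p = 0.0446) and had -0.74 in prdm1-/- embryos (edgeR adjusted p = 0.0576, and 0.000354 with the block). tk1 fell by 45.7% in prdm1-/- embryos (-0.88, SE 0.18, edgeR adjusted p = 0.0329) and had -0.80 in prdm1+/+ embryos (edgeR adjusted p = 0.0527, and 0.0005 with the block). TK1 (2 of 2) lost its call without control set A, B or C or morphant set B or C (log2 fold changes of -0.84 to -0.67). tk1 lost its call without mutant set A or C or double set A, B or C (-0.9996 to -0.71). Over all 17 alternative settings TK1 (2 of 2) lost its call in pbx2/4 morphants in 8, and tk1 in prdm1-/- embryos in 6.

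rrm1 and rrm2 encode the subunits of ribonucleotide reductase, which makes deoxynucleotides, and fell with mean log2 fold changes of -0.44 and -0.60 (edgeR adjusted p = 0.0324 and 0.0469). RRM2 (1 of 2), which shares the name and some fractional counts, had -0.53 and was called only with the block. dut, whose product removes dUTP, fell with -0.44 (edgeR adjusted p = 0.0107). tyms (ENSDARG00000042894), the thymidylate synthase gene, had 30.8, 31.4 and 28.6 CPM in controls, 25.7, 31.3 and 33.1 in mutants, 21.9, 26.9 and 25.9 in morphants and 21.3, 23.2 and 29.5 in double embryos. The morphants lay below the controls and the double embryos overlapped the mutants, with a mean log2 fold change of -0.28 (SE 0.11, edgeR adjusted p = 0.151, and 0.0111 with the block).

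The 6 chromatin and topology rows act behind the fork or on the topology of the copied DNA. In the mean of both genotypes 5 fell, against 4.23% of all genes, and 6 with the block, against 16.6%. dnmt1 (ENSDARG00000030756), the maintenance DNA methyltransferase, had 233, 228 and 231 CPM in controls and 241, 241 and 247 in prdm1 mutants. It had 183, 119 and 164 CPM in pbx2/4 morphants and 163, 138 and 176 in double embryos, with set B lowest in both morpholino groups and no overlap with the other libraries. It fell by 33.6% (log2 fold change -0.59, SE 0.10, edgeR adjusted p = 0.00452). uhrf1, which guides Dnmt1 to copied DNA, fell with -0.48. Its second row UHRF1 (2 of 2) had counts within 0.5 of the first in every library, so the rows carry the same measurement.

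chaf1a (ENSDARG00000062152), the large subunit of the histone chaperone CAF-1, had 279, 299 and 261 CPM in controls, 286, 278 and 245 in mutants, 222, 198 and 212 in morphants and 229.9, 205 and 222 in double embryos. Its lowest library without pbx2/4-MO, the set C mutant, was still above the highest library with it. It fell by 21.8%, the smallest decrease of this role group (log2 fold change -0.35, SE 0.07, edgeR adjusted p = 0.011). chaf1b, its partner, had -0.41 and was called only with the block. top2a, the topoisomerase that untangles copied chromosomes, fell with -0.44 (edgeR adjusted p = 0.0142).

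Loss of prdm1 gave few calls over all genes and none among the replication genes. In prdm1 mutants against controls 0 of 62 rows passed edgeR's adjusted test in either direction, where 0.11% of all genes were called lower and 0.0828% higher. With the block 0 were called as well, against 0.607% of all genes lower and 0.491% higher. At shares this low, 0 of 62 rows is near the share over all genes. None had an unadjusted p under 0.05 without the block, where 480 of all 18117 genes did. With the block 2 rows did, where 1531 of all genes did. DESeq2 also called 0 rows lower, where it called 0.199% of all genes lower. The median log2 fold change was 0.01 and the range -0.17 (ORC2) to 0.31 (orc6). Without the block the 95% intervals of all 62 rows held 0, which restates the unadjusted test of that fit. They reached a median of 0.34 to either side of the estimate, with outermost bounds of -0.72 and 1.01. Intervals with the block are not given. Within sets, 3 rows were lower and 10 higher in all 3 sets, beside 17.0% and 16.8% of all genes.

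In double embryos against pbx2/4 morphants, the effect of prdm1 loss in embryos with pbx2/4-MO, again 0 of 62 rows were called, where 0.0828% of all genes were called lower and 0.0662% higher. With the block 0 were called, against 0.497% of all genes lower and 0.707% higher. Here too 0 of 62 rows is near the share over all genes. No row had an unadjusted p under 0.05 without the block, where 491 of all 18117 genes did. With the block 1 row did, where 1487 of all genes did. DESeq2 called 0 rows lower, where it called 0.182% of all genes lower. The median was 0.02 and the range -0.24 (POLE4) to 0.23 (orc6). Without the block the 95% intervals held 0 in 62 of 62 rows, again restating the unadjusted test of that fit. Their outermost bounds were -0.76 and 0.81. The set medians were -0.05 in set A, 0.05 in set B and 0.06 in set C.

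Double embryos against controls, where both factors differ, called 4 rows lower without the block, with 1.41% of all genes called lower, and 48 with it, against 10.8%. None was called higher, where 0.833% of all genes were, and 9.33% with the block. The 4 rows were rfc1 (-0.95), mcm5 (-0.79), MCM3 (2 of 2) (-0.63) and mcm3 (-0.58). Its control libraries also serve in the comparison of pbx2/4 morphants with controls, and its double libraries in that with prdm1 mutants. In pbx2/4 morphants against controls the same rows had -0.98, -0.78, -0.65 and -0.63. The interaction, the prdm1 effect with pbx2/4-MO minus the prdm1 effect without it, called 0 of the 62 rows and 0% of all genes with edgeR, and DESeq2 called 0 rows. No row had an unadjusted p under 0.05 without the block, where 103 of all genes did, or with it, where 523 did. Without the block, the 95% interval of the interaction held 0 in all 62 rows and lay inside -0.5 to 0.5 in 24. The median width in that fit was 0.965, and intervals with the block are not given. In the other rows the interval without the block reached below -0.5 or above 0.5.

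Other genes of the replication and cell cycle pathways were read from lists chosen with earlier results of these data known. Counts for these and the lists that follow stand beside 4.23% of all genes called lower and 2.95% called higher in the mean of both genotypes, and 16.6% and 15.5% with the block. In the mean of both genotypes, 10 of 30 other replication factors fell and none rose, with a median of -0.26. With the block 21 fell and 2 rose, rnaseh2b (0.36), of a nuclease that removes RNA from DNA, and and1 (0.82), which in zebrafish names an actinodin of the fin fold and not a replication factor. Both were named after their values were seen. The largest decreases were dscc1 (-0.63), of an alternative clamp loader, MCM8 (-0.62), a helicase of the MCM family, esco2 (-0.52), a cohesin acetyltransferase, and mcmbp (-0.50), an MCM binding protein. Of 19 histone supply and chaperone rows 9 fell and none rose, with a median of -0.47 (15 fell with the block). They included h2afx (-0.73), a histone variant gene, hells (-0.73), a chromatin remodeler, nasp (-0.67), a histone chaperone, and asf1ba (-0.60), another. Of 31 mitosis rows 10 fell and none rose, with a median of -0.27 (26 fell with the block), among them kif23 (-0.58), INCENP (-0.52), aurkb (-0.43) and nusap1 (-0.42), which serve spindle and cytokinesis.

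E2F factors, pocket proteins and cyclin-dependent kinases control the expression of the replication genes. Of 20 E2F and Rb family rows, beside 4.23% lower and 2.95% higher over all genes (16.6% and 15.5% with the block), 2 fell, E2F3 (-0.33) and e2f4 (-0.30), and 1 rose, RBL2 (3.24), a pocket protein that restrains E2F, at 11.3 ± 6.81 CPM in the 6 libraries without and 104 ± 28.8 in the 6 with pbx2/4-MO (SD), with a list median of -0.16. With the block 9 fell and 1 rose. Of 20 rows for G1 and S phase cyclins, kinases and their inhibitors 6 fell and 1 rose, with a median of -0.14 (9 and 2 with the block). The rise was cdkn1a (1.68), the p21 inhibitor of cyclin-dependent kinases, and decreases included CDKN1C (2 of 2) (-0.69), named for another such inhibitor, ccne2 (-0.66), a cyclin E, and fbxo5 (-0.64), an inhibitor of the anaphase-promoting complex. Of 15 S phase checkpoint rows 2 fell, the kinase genes chek1 (-0.53) and wee1 (-0.43), with a median of -0.17 (7 with the block). The part of these regulators in the decrease of the replication genes was not tested.

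p53 target RNA moved with the same injections. Of 23 p53 target rows, a list known from earlier results to move, 15 rose and none fell in the mean of both genotypes, with a median of 1.25, where 2.95% of all genes were called higher. With the block 16 rose and 3 fell, GTSE1 (-0.28), rrm2b (-0.19) and xpc (-0.32), named after their values were seen. The largest changes were casp8 (2.82), phlda3 (2.72), bbc3 (2.32) and gadd45aa (2.16), genes of cell death and growth arrest. The summed level of the list's 24 rows was 1592 to 2610 CPM in controls, 1550 to 2779 in prdm1 mutants, 4371 to 5537 in pbx2/4 morphants and 4783 to 5231 in double embryos. The part of this response in the decrease of the replication genes was not tested.

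**Figure D5:**
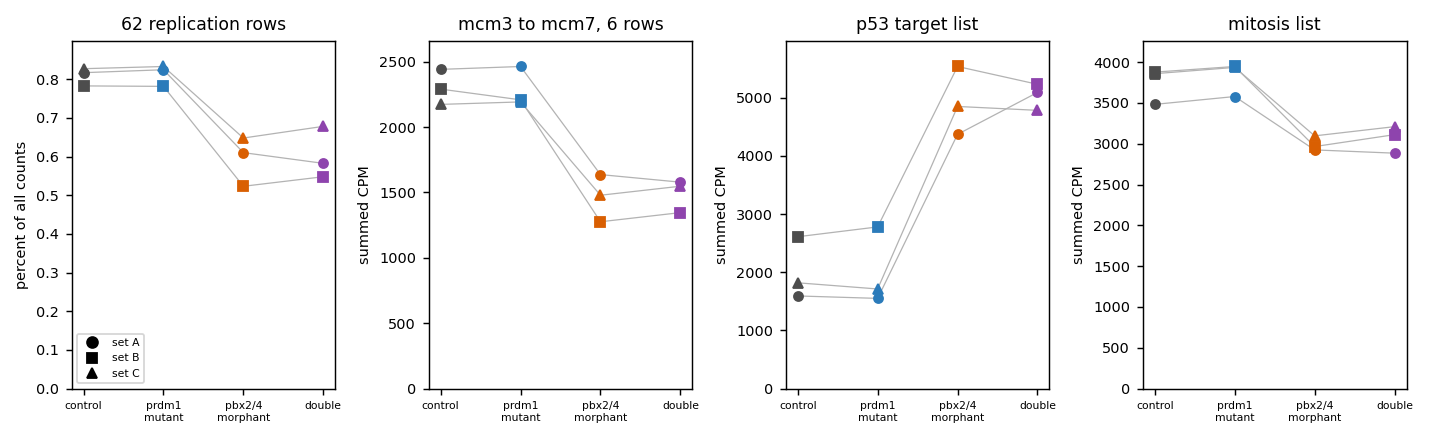
Percent of all counts in the 62 replication gene rows and summed CPM of the 6 rows for mcm3 to mcm7, the p53 target list and the mitosis list, in each library, with grey lines joining the libraries of a set. In libraries with pbx2/4-MO the replication share is at most 0.678% and the p53 target sum at least 4371 CPM.

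Some cell type markers also changed with pbx2/4-MO, and their counts stand beside 4.23% of all genes called lower and 2.95% higher, or 16.6% and 15.5% with the block. No marker list had a gene at 0 in all 3 libraries of a group. Of 15 markers of differentiating muscle 11 fell and none rose, with a median log2 fold change of -0.85 (13 fell with the block). Their summed level was 1005 to 1420 CPM in controls, 668.6 to 987.2 in prdm1 mutants, 681.4 to 993.3 in pbx2/4 morphants and 425.4 to 494.4 in double embryos. Of 10 neural progenitor markers 4 fell, sox1a (-0.68), sox3 (-0.57), sox19b (-0.34) and sox19a (-0.30), and none rose (median -0.25, 5 fell with the block). Their sums were 1044 to 1153 CPM in controls, 1082 to 1214 in prdm1 mutants, 840.7 to 952.9 in pbx2/4 morphants and 875.9 to 1019 in double embryos. Of 11 tailbud progenitor rows 2 rose, both named wnt8a, and none fell (median 0.07). With the block 2 rose and none fell, near the share of all genes called higher. The tailbud rows summed to 695.2 to 796.2 CPM in controls, 694.4 to 797.9 in prdm1 mutants, 691.7 to 864.4 in pbx2/4 morphants and 743.6 to 812.5 in double embryos. The muscle and neural progenitor sums with pbx2/4-MO lay below those without it within each genotype, and the tailbud sums overlapped. The markers named here and below were named after their values were seen.

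Of 12 postmitotic neuron markers 1 fell, tubb5 (-0.63), and 3 fell with the block, beside 4.23% and 16.6% of all genes, with a median of -0.10, and the sum of the 14 rows was 418.5 to 429.8 CPM in controls, 331.6 to 356.7 in prdm1 mutants, 307.9 to 350.9 in pbx2/4 morphants and 254.3 to 268.6 in double embryos. Like the muscle and neural progenitor sums, the neuron sums with pbx2/4-MO lay below those without it within each genotype. Of 8 blood progenitor markers 0 passed edgeR's test without the block (median -0.24), and with it 4 fell and gata2a (0.15) rose, with sums of 194.7 to 235.5 CPM in controls, 198.2 to 254.4 in prdm1 mutants, 201.9 to 212.6 in pbx2/4 morphants and 204 to 217.1 in double embryos. Of 11 epidermis markers 2 fell, tp63 (-0.54) and krt18 (-0.47), with a median of -0.19, and the block gave 5 decreases and 2 increases, krt8 (0.14) and krt4 (0.11). The sum of the 12 epidermis rows was 23300 to 26870 CPM in controls, 23000 to 25730 in prdm1 mutants, 21000 to 27350 in pbx2/4 morphants and 20940 to 26260 in double embryos. The part of these cell types in the replication result was not tested.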

How the data were processed

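RNA was measured by sequencing in 12 libraries, 3 in each of 4 groups. The authors deposited a table of estimated counts per gene, not normalised, in which 13.7% of values were not whole numbers (tolerance 1e-06). They were rounded to whole numbers here, where the design had assumed whole counts. The submitters' processing notes list TopHat 1.4, edgeR and genome build Zv9. The annotation and strand setting stand as not given in the sources used here, and overlapping or antisense genes may share reads. The authors' 3 comparison tables were not used. Group words in the column names assigned columns to groups, without replicate numbers. In set A the prdm1 genotype was read from a W or an M.

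Tests were edgeR 4.0.16 quasi-likelihood F tests (R 4.3.3) after TMM scaling and the filterByExpr filter, with all 12 libraries in 1 model without a block (8 residual degrees of freedom) and with Benjamini-Hochberg adjustment over 18117 genes, called at an adjusted p under 0.05. The second fit added the column-name set as a block (6 residual degrees of freedom), since same-set libraries deviated together. The biological coefficient of variation was 0.212 without and 0.0754 with it. SE is the absolute log2 fold change over the square root of F. CPM use TMM-scaled library sizes, and levels are not compared between genes because no gene lengths were used. Differences within sets are on log2(CPM + 0.5), which understates low genes. No 2 libraries of a group were alike within sampling noise (chi-square per gene 11.8 to 33.7). The 66 rows without a name were kept as genes. The test without the block was checked on simulated data. The changes simulated there were larger than the median change of the 62 rows, and no set effect was simulated. The fit with the block was not checked in this way. Of the 62 row IDs, 51 have a current symbol in the reference table of gene names, and no sequences were used.

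Members and lists were chosen with earlier results of these data known. Library values are given for rows called in a comparison of 2 groups and, in each role group, for the row of smallest p and the row of highest log2 fold change in the mean of both genotypes. From each pathway list up to 4 called genes with the largest change are named. Alternatives were upper quartile and RLE scaling, library size only, no filter on low counts, only the groups of the contrast, the block, DESeq2 1.42.0, counts not rounded, rows summed by name and leaving out each library, and, chosen after seeing the data, leaving out each whole set.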

Additional observations from a re-analysis of the deposited data

How the results depend on the processing

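The replicate block, here the column-name set, raised the replication gene rows called lower from 6 to 48 in pbx2/4 morphants, from 5 to 47 in prdm1-/- embryos, from 33 to 59 in the mean of both genotypes and from 4 to 48 in double embryos against controls. Calls rose over all genes too, with the share called lower going from 0.883% to 9.95% in pbx2/4 morphants and from 0.811% to 8.98% in prdm1-/- embryos. That share went from 4.23% to 16.6% in the mean of both genotypes and from 1.41% to 10.8% in double embryos against controls. Among the replication gene rows the block changed no call in the comparisons of prdm1 loss or the interaction, which stayed at 0. A fit of only the groups of the contrast gave 2 rows in pbx2/4 morphants and 2 in prdm1-/- embryos, against 0.371% and 0.282% of all genes. DESeq2 gave 15, 14 and 14 rows in pbx2/4 morphants, prdm1-/- embryos and double embryos against controls, against 1.94%, 1.98% and 2.52% of all genes. Rows summed by name left 57 genes, of which 5, 4 and 29 were called in the first 3 comparisons. The share of all genes called in that fit was not computed.

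Leaving out 1 library gave 2 to 4 calls in pbx2/4 morphants, 2 to 5 in prdm1-/- embryos, 20 to 35 in the mean of both and 2 to 5 in double embryos against controls. The mean of both fell to 20 without double set A and 21 without control set C. Leaving out a whole set, with the block, gave 30 to 41, 22 to 46, 48 to 57 and 26 to 46. The shares of all genes called in the fits with a library or set left out were not computed. Whether these counts moved with the calls over all genes therefore cannot be told. With a library or a whole set left out, the medians ran from -0.48 to -0.37, -0.52 to -0.36, -0.49 to -0.37 and -0.49 to -0.35. For prdm1 mutants against controls the median was 0.00192 to 0.0333, for double embryos against pbx2/4 morphants -0.0814 to 0.0886 and for the interaction -0.11 to 0.0722, with 0 calls. The causes were not tested.

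Of the 16 rows refitted singly, POLD4, called in no setting, changed sign in pbx2/4 morphants or prdm1-/- embryos. It had -0.22 in prdm1-/- embryos without mutant set B, -0.22 without double set C and -0.07 without set B, and -0.00046 in pbx2/4 morphants without morphant set C. Its highest values with a library or set left out were 0.42 and 0.48. Over all 62 rows, scaling by library size only gave 2 positive rows in pbx2/4 morphants and 2 in double embryos against controls, beside 1 in each with TMM scaling. The pbx2/4-MO comparisons within each genotype had 3 libraries a group and SEs of 0.10 to 0.37. In them most rows near the median change passed the test only with the block. In the mean of both genotypes 33 of the 62 rows passed without it.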
